A study of Homo sapiens with 59 samples.

Results

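The genes described here are 10 transcriptional targets of Wnt and β-catenin signalling, most of which feed back on the pathway: DKK1, NOTUM, RNF43, ZNRF3, LGR5, AXIN2, NKD1, TCF7, LEF1 and SP5. They were taken by name from a table of 60675 genes, and each matched 1 row of it. The samples were 59 RNA-seq libraries of HepG2, an established human liver cancer cell line that carries an activated CTNNB1 (the β-catenin gene), all collected after 24 h of treatment. Of the 20 groups, 1 received the DMSO vehicle, 1 received wortmannin at 10 µM, an inhibitor of PI3-kinase that the study used as its positive control, and 18 received a water extract of a medicinal plant. Coptidis Rhizoma was given at 210, 42 and 8.4 µg/mL, since its top dose was set by the IC20, the dose that inhibits the cells by a set share. Zizyphi Fructus, Scutellariae Radix, Pinelliae Tuber and the ginger drugs, Zingiberis Rhizoma (dried) and Zingiberis Rhizoma Recens (fresh), were given at 500, 100 and 20 µg/mL. Groups held 3 libraries except Pinelliae Tuber at 20 µg/mL, which held 2. The labels of the vehicle samples give 0.1% DMSO, the text on the series gives 2%, and the labels of the treated groups give no value. Every sample title names the same batch, BatchA, and carries a number. Wortmannin samples carry 1 and vehicle samples A1, which is read here as 1. Ginger samples carry 2, Scutellariae and Pinelliae samples 3, and Zizyphi and Coptidis samples 4. What this number means is not stated. The top and bottom doses of each extract share it, whereas an extract and the vehicle do not, so in a comparison with vehicle the treatment and this number cannot be told apart.

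In canonical Wnt signalling, ligands bind Frizzled receptors with the co-receptors LRP5 and LRP6, a cytoplasmic destruction complex built on Axin stops degrading β-catenin, and β-catenin enters the nucleus to act with TCF and LEF proteins. Many genes switched on in this way encode brakes on the same pathway and are widely read as markers of its activity. In liver the pathway is known for setting the gene programme of hepatocytes around the central vein, and activating mutations of CTNNB1 occur in liver cancers. An activated β-catenin acts below the receptors and the destruction complex.

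Libraries held between 21582603 and 31392069 counts. The 9 genes other than LEF1 had at least 614 counts in every library and entered the test, which covered 16641 genes in all. Apart from the rest of their group stood 3 libraries, namely replicate 1 of dried ginger at 500 µg/mL, replicate 3 of Pinelliae Tuber at 100 µg/mL and replicate 1 of Zizyphi Fructus at 20 µg/mL. Called changes against vehicle in these groups kept their direction and their call without the 3 libraries. Several of the values that moved, though not all, are given beside the results. Hepatocyte markers matched the cell line, with group means for ALB (albumin) between 6459 and 12428 CPM (counts scaled to a common library size, with TMM factors). Of 10 markers of other cell types, KRT5 was at 0 in 59 libraries, and PTPRC and DCN were at 0 in 58. CD68 and ACTA2 were present, with group means of up to 78.2 and 82.1 CPM. No label says that replicates were grown separately, so the p-values speak of the spread among these libraries only. These are bulk samples, in which fewer cells of a type and less RNA per cell cannot be told apart.

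Of the 10 genes, 5 had an entry in the RefSeq promoter table of build GRCh38.p14: DKK1, SP5, TCF7, RNF43 and LEF1. The windows reach from 250 bases before to 50 bases after a gene's start and were searched on both strands for 4 TCF/LEF motifs of 7 bases (CTTTGAA and CTTTGAT and CTTTGTA and CTTTGTT), which 13.8% of all 35116 promoters in the table hold. DKK1 and SP5 are shown because they held the most matches, 2 and 3, and because both genes fell at the top dose of several extracts. The 250 bases before the start are printed 5′ to 3′ on the gene's strand, with matches in capitals. The DKK1 stretch is chr10:52314031-52314280 on the plus strand and the SP5 stretch is chr2:170715087-170715336 on the plus strand.
DKK1: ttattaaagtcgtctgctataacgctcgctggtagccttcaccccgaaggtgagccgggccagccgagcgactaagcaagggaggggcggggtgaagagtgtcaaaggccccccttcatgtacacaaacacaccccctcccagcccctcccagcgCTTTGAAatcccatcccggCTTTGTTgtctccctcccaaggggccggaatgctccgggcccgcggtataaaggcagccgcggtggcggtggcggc
SP5: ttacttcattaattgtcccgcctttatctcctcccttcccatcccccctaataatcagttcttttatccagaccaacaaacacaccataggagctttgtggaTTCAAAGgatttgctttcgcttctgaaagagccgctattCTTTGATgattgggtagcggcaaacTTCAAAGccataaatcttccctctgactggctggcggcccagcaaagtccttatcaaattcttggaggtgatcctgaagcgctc
In DKK1 both matches lie on the gene's own strand and begin 95 and 76 bases before the start. In SP5 the matches begin 148, 109 and 84 bases before the start, and the outer pair is read on the opposite strand, so it appears as TTCAAAG. One of the 2 windows of TCF7 held 1 match on the opposite strand, 50 bases before the start, and the windows of RNF43 and LEF1 held none. For AP-1 (TGACTCA or TGAGTCA, in 4.95% of promoters) and FOXO (GTAAACA, in 3.42%), RNF43 held 1 AP-1 match 47 bases before one of its starts and TCF7 1 FOXO match 23 bases before one of its starts. A match is a description of the sequence only.

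In vehicle-treated cells NOTUM was the most abundant of these transcripts per length, at 271 ± 6.51 TPM (a level per transcript length, from exon lengths of GENCODE 29; SD, n = 3). SP5 followed at 179 ± 15.1 and DKK1 at 160 ± 1.32 TPM. LGR5 stood at 82.7 ± 1.96, NKD1 at 74.5 ± 0.535, AXIN2 at 64.2 ± 2.00, ZNRF3 at 59.3 ± 0.985 and RNF43 at 56.6 ± 0.469 TPM. TCF7 was lower, at 12.5 ± 0.761 TPM. LEF1 was close to the limit of detection at 0.0871 ± 0.0553 TPM. TPM carries no TMM factor and is scaled to the total of counts divided by length. For each of these genes the Coptidis means stood lower against vehicle in TPM than in CPM. The part of either difference in scaling was not tested. In GENCODE 29 on GRCh38, DKK1 (ENSG00000107984) lies at chr10:52314296-52318042, SP5 (ENSG00000204335) at chr2:170715351-170718078 and NOTUM (ENSG00000185269) at chr17:81952507-81961840. AXIN2 (ENSG00000168646) lies at chr17:65528563-65561647, NKD1 (ENSG00000140807) at chr16:50548330-50649249 and TCF7 (ENSG00000081059) at chr5:134114711-134151865. RNF43 (ENSG00000108375) lies at chr17:58352500-58417595, ZNRF3 (ENSG00000183579) at chr22:28883592-29057487, LGR5 (ENSG00000139292) at chr12:71439770-71586310 and LEF1 (ENSG00000138795) at chr4:108047545-108168956.

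The 9 tested genes did not move as a block. Against vehicle, the top dose of Coptidis Rhizoma changed all 9, with 3 higher and 6 lower, where 69.4% of all tested genes were called (34.8% higher and 34.5% lower), and the top dose of Scutellariae Radix lowered 8, where 50.2% were called and 25.5% called lower. Fresh ginger at 500 µg/mL changed 6 (2 higher and 4 lower, against 46% of all genes, 23.5% higher and 22.5% lower), wortmannin 6 (2 higher and 4 lower, against 32.2%) and dried ginger at 500 µg/mL 5 (2 higher and 3 lower, against 42.4%, 21.5% higher and 20.9% lower). Without the libraries that stand apart dried ginger at 500 µg/mL changed 7, with NKD1 (-0.10, adjusted p = 0.0107) and SP5 (-0.38, adjusted p = 0.000875) called lower in addition to the 5. Pinelliae Tuber at 500 µg/mL lowered 2 (4.57% of all genes called, 1.93% lower) and Zizyphi Fructus at 500 µg/mL raised 1 and lowered 1 (3.61%). At the middle doses the counts were 5 for Coptidis (46.9% of all genes), 3 for Scutellariae (14.6%), 1 each for fresh ginger (22.2%), dried ginger (17.5%) and Zizyphi (0.228%), and 0 for Pinelliae (0.204%). At the bottom doses they were 3 for Coptidis (16%), 2 for Scutellariae (4.74%), 1 each for fresh ginger (5.1%) and Zizyphi (1.99%), and 0 for dried ginger (0.0841%) and Pinelliae (0.00601%). In the 3 comparisons with no call from edgeR's quasi-likelihood test, an unadjusted p under 0.05 was reached by 3 genes in Pinelliae at 100 µg/mL and by 1 gene each in the other two, and DESeq2 called 2, 0 and 0. The median log2 change of the 9 genes was -0.51 in Scutellariae Radix at 500 µg/mL and -0.29 in Coptidis Rhizoma at 210 µg/mL, and that of all genes was 0.01 and 0.00. In the other 17 groups the median of the 9 genes lay between -0.11 and 0.04.

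**Figure D1:**
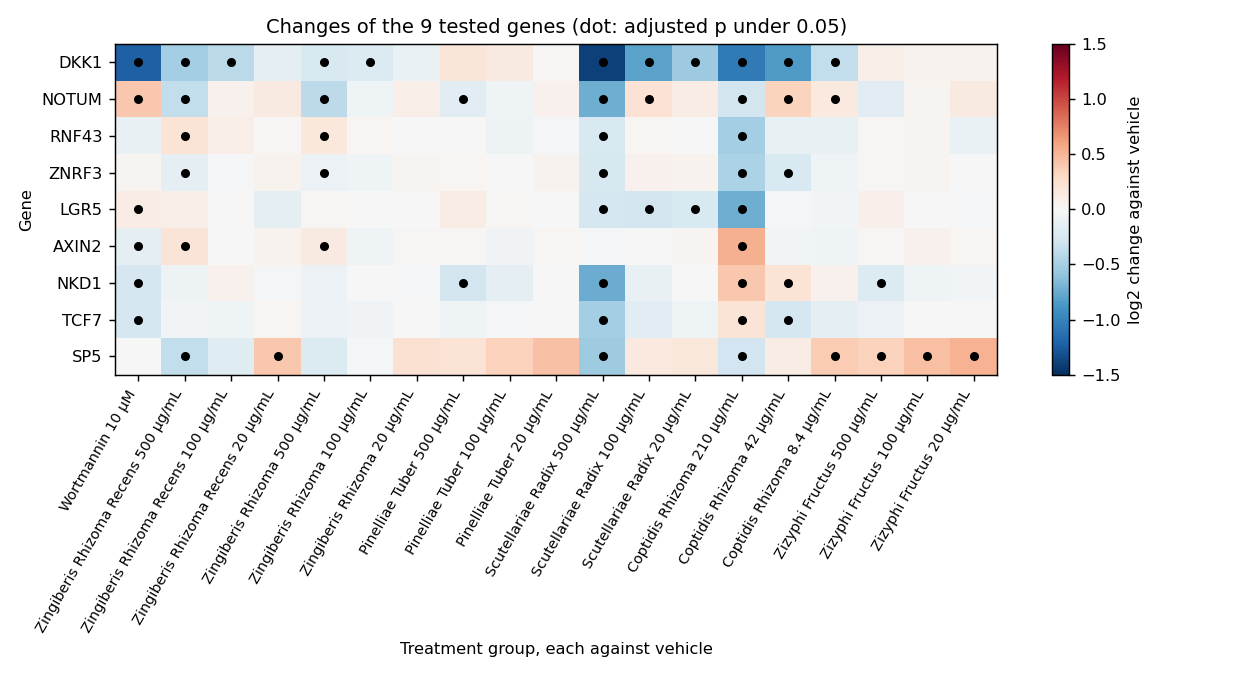
Log2 change of the 9 tested genes (rows) in each of the 19 treated groups against vehicle (columns), with blue for lower and red for higher levels and a dot where the adjusted p was under 0.05. DKK1 is blue with a dot in 11 columns and has no dotted red cell, while NKD1 and TCF7 are blue with a dot at the top dose of Scutellariae Radix and red with a dot at that of Coptidis Rhizoma.

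DKK1 encodes Dickkopf-1, a secreted inhibitor that binds LRP5 and LRP6. Its level was called lower in 11 of the 19 treated groups and higher in none. In those 11 groups 2.17% to 34.5% of all genes were called lower, and all are set against the same 3 vehicle libraries. The vehicle libraries held 109, 107 and 108 CPM and the wortmannin libraries 46.3, 46.5 and 46.5 CPM. Scutellariae Radix gave 41.0, 41.5 and 40.8 CPM at 500 µg/mL, 63.8, 63.2 and 59.4 CPM at 100 µg/mL and 71.6, 72.5 and 79.9 CPM at 20 µg/mL. Every library of these 4 groups lay below every vehicle library, and the 3 Scutellariae doses did not overlap one another. The change in Scutellariae Radix was -1.40 ± 0.0649 on the log2 scale at 500 µg/mL (2.63-fold lower, adjusted p = 2.92e-24), -0.80 ± 0.0621 at 100 µg/mL (adjusted p = 1.50e-14) and -0.54 ± 0.0612 at 20 µg/mL (adjusted p = 9.67e-09; each error is the model's standard error). The change with wortmannin was -1.22 ± 0.0637.

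Coptidis Rhizoma gave a like series for DKK1. The libraries held 58.1, 50.8 and 47.0 CPM at 210 µg/mL, 60.9, 60.4 and 58.6 CPM at 42 µg/mL and 81.8, 82.2 and 86.5 CPM at 8.4 µg/mL. All 9 lay below vehicle, and no group overlapped its neighbour in dose. The log2 changes were -1.06 ± 0.0631 (2.08-fold lower, adjusted p = 1.48e-20), -0.85 ± 0.0624 (adjusted p = 1.48e-16) and -0.37 ± 0.061 (adjusted p = 8.18e-06). Among doses of 1 extract, which share the title number, DKK1 was lower at the top than at the bottom dose, with a change of -0.86 ± 0.066 in Scutellariae Radix (adjusted p = 5.38e-16) and of -0.68 ± 0.0641 in Coptidis Rhizoma (adjusted p = 1.88e-13).

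Against vehicle, the gingers lowered DKK1 less. Fresh ginger gave 76.6, 76.8 and 75.1 CPM at 500 µg/mL, 84.0, 83.3 and 78.2 CPM at 100 µg/mL and 97.3, 99.8 and 97.7 CPM at 20 µg/mL. The changes at the upper 2 doses were -0.51 ± 0.0615 (adjusted p = 1.09e-09) and -0.40 ± 0.0611 (adjusted p = 8.05e-07), and that at 20 µg/mL was -0.14 ± 0.06 and did not pass (adjusted p = 0.164), although its libraries lay below those of vehicle. Dried ginger at 500 µg/mL gave 105, 84.3 and 88.0 CPM, and the library at 105 CPM is the one that stands apart. The change was -0.23 ± 0.0604 with it (adjusted p = 0.00173) and -0.33 without the libraries that stand apart (adjusted p = 1.32e-07). At 100 µg/mL dried ginger gave 95.3, 95.3 and 91.9 CPM, a change of -0.20 ± 0.0604 (adjusted p = 0.014) that did not pass without replicate 3 (-0.18, adjusted p = 0.0662). At 20 µg/mL it gave 98.8, 102 and 102 CPM, all below vehicle, and was not called. Between top and bottom dose, which share the title number, the dried ginger change was -0.12 and did not pass (adjusted p = 0.0988). Without the libraries that stand apart it was -0.23 (adjusted p = 0.000126). For fresh ginger this change was -0.37 in the edgeR fit with a replicate block (adjusted p = 2.38e-06).

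At 500 µg/mL DKK1 was lower in fresh than in dried ginger, with a difference of -0.28 ± 0.0619 (adjusted p = 0.00616), and it was the only one of the 9 genes called between the 2 drugs, where 1.83% of all genes were called. Its size and its call depended on replicate 1 of dried ginger. Without that library alone it was -0.18 with an adjusted p of 0.209, and without all 3 libraries that stand apart it was -0.18 with an adjusted p of 0.0432. The call was also lost when only the groups compared were fitted (-0.28, adjusted p = 0.217). At 100 and 20 µg/mL edgeR's quasi-likelihood test called 0 of the 9 genes between the gingers (0.379% and 0.0481% of all genes), with 2 and 1 at an unadjusted p under 0.05 and 0 and 0 called by DESeq2.

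DKK1 was not called in Pinelliae Tuber or Zizyphi Fructus at any dose. Pinelliae gave 127, 126 and 114 CPM at 500 µg/mL, 111, 117 and 131 CPM at 100 µg/mL and 108 and 111 CPM at 20 µg/mL. The mean change at 500 µg/mL was 0.18 ± 0.0594 (adjusted p = 0.0706), with every library above vehicle. Without the libraries that stand apart the change at 100 µg/mL was 0.08 in place of 0.14, and neither was called. Zizyphi group means were 115 ± 3.79, 112 ± 2.68 and 112 ± 12.1 CPM from the top to the bottom dose. Without the same libraries the change in Zizyphi at 20 µg/mL was -0.05 in place of 0.05, and neither was called. In the order of all 20 group means, Pinelliae at 500 µg/mL was highest at 123 CPM and Scutellariae at 500 µg/mL lowest at 41.1 CPM, a ratio of 2.98. Each group above vehicle overlapped the next one down, whereas vehicle, at 108 CPM, did not overlap dried ginger at 20 µg/mL just below it. The 4 lowest (Coptidis at 42 and 210 µg/mL, wortmannin and Scutellariae at 500 µg/mL) did not overlap one another.

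**Figure D2:**
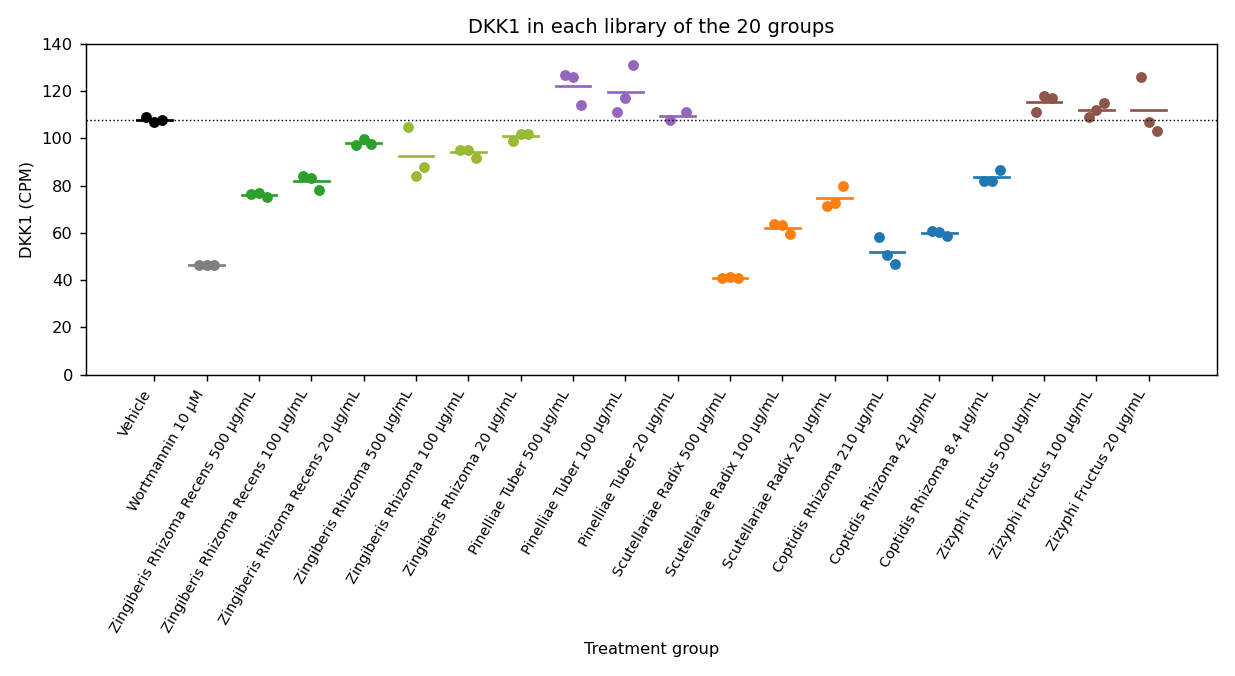
DKK1 level in CPM (vertical axis, from 0) in each of the 59 libraries, by group (horizontal axis); points are libraries, short lines are group means and the dotted line is the vehicle mean. Wortmannin and the Scutellariae and Coptidis groups lie below the vehicle libraries at every dose, and the Pinelliae and Zizyphi means lie at 109 to 123 CPM.

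NOTUM encodes a secreted carboxylesterase that inactivates Wnt ligands by removing their lipid. Its mean was below vehicle at the top dose of all 6 extracts. It was called lower in 5 of them, where 1.93% to 34.5% of all genes were called lower. The call was missed in Zizyphi Fructus (-0.17 ± 0.0525, adjusted p = 0.0506). All 6 comparisons use the same 3 vehicle libraries. Vehicle libraries held 254, 241 and 260 CPM. Scutellariae Radix at 500 µg/mL gave 155, 158 and 142 CPM (-0.73 ± 0.0535, adjusted p = 1.00e-16), the lowest group. Both gingers at 500 µg/mL were alike, at 187, 200 and 198 CPM for fresh (-0.37 ± 0.053) and 193, 192 and 192 CPM for dried (-0.39 ± 0.0529), and the difference between them was 0.02 ± 0.0533. Coptidis Rhizoma at 210 µg/mL gave 203, 221 and 200 CPM (-0.28 ± 0.0528, adjusted p = 8.37e-06). Pinelliae Tuber at 500 µg/mL gave 228, 207 and 234 CPM (-0.17 ± 0.0526, adjusted p = 0.045). That call was lost without vehicle replicate 1 or 3 or any 1 of the Pinelliae libraries, with changes of -0.21 to -0.13 and adjusted p from 0.0567 to 0.17.

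At the middle and bottom doses NOTUM was called lower in no extract, with changes from -0.07 to 0.33. It was highest with wortmannin, at 339, 331 and 333 CPM (0.41 ± 0.0523, adjusted p = 1.26e-08). Coptidis Rhizoma at 42 µg/mL gave 329, 309 and 314 CPM (0.33 ± 0.0524, adjusted p = 4.71e-07) and Scutellariae Radix at 100 µg/mL gave 301, 272 and 305 CPM (0.22 ± 0.0524, adjusted p = 0.00202). In CPM the middle dose of both extracts thus lay above vehicle and the top dose below it. DKK1 by contrast fell at every dose. In TPM NOTUM was at 272 ± 9.89 and 243 ± 30.7 with Coptidis at 42 and 8.4 µg/mL, against 271 ± 6.51 in vehicle. At 8.4 µg/mL of Coptidis NOTUM was called higher by 0.15 ± 0.0525 (adjusted p = 0.0372), but its libraries overlapped vehicle and the call was lost without vehicle replicate 1 or 2 or Coptidis replicate 1 or 3 (0.08 to 0.16, adjusted p from 0.0543 to 0.374). Between bottom and top dose NOTUM fell in all 6 extracts, with log2 changes of -0.84 in Scutellariae, -0.51 in fresh ginger, -0.49 in dried ginger, -0.43 in Coptidis, -0.32 in Zizyphi and -0.24 in Pinelliae. The Pinelliae call was lost without replicate 2 of the 500 µg/mL group or either replicate of the 20 µg/mL group (-0.25 to -0.20, adjusted p from 0.0785 to 0.205), and the Zizyphi call when only the groups compared were fitted (adjusted p = 0.17).

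RNF43 and ZNRF3 encode related transmembrane ubiquitin ligases that remove Frizzled receptors from the cell surface. They fell together at the top doses of Coptidis and Scutellariae and moved apart in ginger. RNF43 was at 130, 129 and 132 CPM in vehicle and at 87.4, 96.0 and 91.2 CPM in Coptidis Rhizoma at 210 µg/mL (-0.51 ± 0.0595, adjusted p = 1.19e-10). ZNRF3 was at 126, 125 and 130 CPM in vehicle and at 89.7, 92.5 and 92.8 CPM in the same Coptidis group (-0.47 ± 0.0357, adjusted p = 1.24e-16). In both genes these Coptidis libraries lay well below all vehicle libraries. In the test the middle dose also lowered ZNRF3 (-0.23 ± 0.0354) but left RNF43 uncalled (-0.11 ± 0.0587, adjusted p = 0.118). In TPM RNF43 was at 41.6 ± 0.944 and 42.2 ± 1.87 with Coptidis at 42 and 8.4 µg/mL, against 56.6 ± 0.469 in vehicle. ZNRF3 was at 40.1 ± 0.893 and 45.5 ± 2.16 TPM in these groups, against 59.3 ± 0.985 in vehicle. Both genes thus lay below vehicle in TPM at both doses. Scutellariae Radix at 500 µg/mL lowered RNF43 to 111 ± 1.06 CPM (-0.23 ± 0.059) and ZNRF3 to 108 ± 1.29 CPM (-0.24 ± 0.0354). Fresh ginger at 500 µg/mL raised RNF43 to 151, 148 and 149 CPM (0.20 ± 0.0583, adjusted p = 0.00475), its highest group, and lowered ZNRF3 to 121, 115 and 111 CPM (-0.13 ± 0.0353, adjusted p = 0.00171). Dried ginger at 500 µg/mL gave the same directions with smaller changes, 0.16 ± 0.0582 for RNF43 and -0.09 ± 0.0352 for ZNRF3. The RNF43 call was lost without vehicle replicate 1 or 2 or dried ginger replicate 2 (0.14 to 0.16, adjusted p from 0.0572 to 0.0898). The ZNRF3 call was lost without vehicle replicate 3 or dried ginger replicate 2 or 3 (-0.09 to -0.08, adjusted p from 0.0705 to 0.113) and in 2 other settings. Against their own bottom doses both gingers again had higher RNF43 (0.17 fresh and 0.16 dried) and lower ZNRF3 (-0.18 and -0.13). The RNF43 call against the bottom dose was lost without replicate 3 of fresh ginger at 20 µg/mL (0.15, adjusted p = 0.057) and, in dried ginger, without replicate 2 of either dose (0.14, adjusted p = 0.0845 and 0.0866).

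LGR5 encodes a receptor for R-spondins, secreted proteins that block RNF43 and ZNRF3, and marks hepatocytes with high Wnt activity. It was at 138, 130 and 133 CPM in vehicle and at 78.2, 84.1 and 78.7 CPM in Coptidis Rhizoma at 210 µg/mL, by far its lowest group (-0.73 ± 0.0424, adjusted p = 4.70e-21). At 42 and 8.4 µg/mL of Coptidis it was at 130 ± 7.64 and 129 ± 6.25 CPM and overlapped vehicle. In TPM these groups were at 64.3 ± 3.32 and 64.5 ± 0.812, against 82.7 ± 1.96 in vehicle. Scutellariae Radix lowered LGR5 by about as much at each dose, to 115, 110 and 113 CPM at 500 µg/mL (-0.25 ± 0.0417), 112, 113 and 105 CPM at 100 µg/mL (-0.28 ± 0.0416) and 117, 112 and 112 CPM at 20 µg/mL (-0.23 ± 0.0415, adjusted p = 0.000125). Its top and bottom doses differed by -0.01 ± 0.0419 (95% interval -0.10 to 0.07, adjusted p = 0.807). In fresh ginger LGR5 was higher at the top than at the bottom dose, 147, 136 and 145 against 121, 123 and 121 CPM (0.22 ± 0.0413, adjusted p = 1.04e-05), while neither dose was called against vehicle. With wortmannin the call at 0.11 ± 0.0411 (adjusted p = 0.0303) was lost without vehicle replicate 2 or 3 or any 1 wortmannin library (0.08 to 0.12, adjusted p from 0.0509 to 0.177).

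AXIN2 encodes a scaffold of the destruction complex and is among the most widely used readouts of β-catenin activity. It stayed within 92.7 to 120 CPM in the libraries of the other 19 groups and stood out in Coptidis Rhizoma at 210 µg/mL, at 149, 154 and 144 CPM. Vehicle libraries held 102, 99.3 and 108 CPM, and the change was 0.53 ± 0.0417 (1.45-fold higher, adjusted p = 3.36e-16). At 42 and 8.4 µg/mL of Coptidis AXIN2 was at 100 ± 1.48 and 98.4 ± 2.44 CPM and overlapped vehicle. In TPM these groups were at 49.7 ± 0.778 and 49.3 ± 2.98, against 64.2 ± 2.0 in vehicle. Both gingers at 500 µg/mL raised it, to 116, 120 and 117 CPM with fresh (0.19 ± 0.0422, adjusted p = 0.000175) and 110, 120 and 112 CPM with dried ginger (0.14 ± 0.0421, adjusted p = 0.00426). The dried ginger call was lost without replicate 2 of that group (0.11, adjusted p = 0.0636). In Scutellariae Radix at 500 µg/mL, where DKK1 had its lowest level, AXIN2 was at 102, 101 and 102 CPM and changed by -0.02 ± 0.0424 (95% interval -0.10 to 0.06, adjusted p = 0.701). Wortmannin lowered AXIN2 slightly, to 93.5, 96.4 and 92.7 CPM (-0.13 ± 0.0424, adjusted p = 0.014), a call that was lost without vehicle replicate 3 (-0.10, adjusted p = 0.0852).

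NKD1 encodes Naked cuticle 1, which binds Dishevelled and dampens the signal. Its level parted in opposite directions with the 2 extracts that lowered DKK1 most. Vehicle libraries held 402, 389 and 405 CPM. Coptidis Rhizoma gave 532, 546 and 513 CPM at 210 µg/mL (0.41 ± 0.0383, adjusted p = 1.25e-13), 458, 461 and 458 CPM at 42 µg/mL (0.20 ± 0.0384, adjusted p = 1.41e-05) and 418, 414 and 421 CPM at 8.4 µg/mL (0.07 ± 0.0384, adjusted p = 0.25). In CPM these are the 3 highest group means of NKD1 in the study, with every library above vehicle. In TPM the Coptidis means were 87.0 ± 2.12, 68.2 ± 0.317 and 62.8 ± 2.9 from top to bottom dose. The vehicle mean was 74.5 ± 0.535 TPM, so only the top dose lay above it. Scutellariae Radix at 500 µg/mL gave 242, 235 and 233 CPM (-0.75 ± 0.039, 1.69-fold lower, adjusted p = 2.21e-22), the lowest group, with no library of any other group below 317 CPM. Its middle and bottom doses were not called. Smaller falls were called with Pinelliae Tuber at 500 µg/mL (326, 317 and 340 CPM, -0.28 ± 0.0385), wortmannin (326, 334 and 347 CPM, -0.25 ± 0.0385) and Zizyphi Fructus at 500 µg/mL (343, 350 and 344 CPM, -0.20 ± 0.0384).

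TCF7 and LEF1 encode DNA-binding partners of β-catenin. TCF7 followed NKD1 in direction at the top doses, with smaller changes. It was at 37.3, 40.7 and 38.1 CPM in vehicle, 44.2, 48.1 and 41.7 CPM in Coptidis Rhizoma at 210 µg/mL (0.21 ± 0.0604, adjusted p = 0.0021) and 24.8, 28.2 and 28.2 CPM in Scutellariae Radix at 500 µg/mL (-0.51 ± 0.0638, adjusted p = 1.54e-09). Neither group overlapped vehicle in CPM. In TPM the Coptidis mean of TCF7 was 12.7 ± 0.776, against 12.5 ± 0.761 in vehicle. At 42 µg/mL of Coptidis, however, TCF7 was lower, at 34.6, 29.9 and 32.1 CPM (-0.26 ± 0.0624, adjusted p = 0.000409), and wortmannin lowered it to 35.0, 31.7 and 31.0 CPM (-0.25 ± 0.0621). LEF1 had between 1 and 11 counts in each of the 59 libraries (0.0379 to 0.445 CPM) and failed the filter on low counts. Its highest group mean was 0.368 ± 0.0935 CPM in Coptidis Rhizoma at 210 µg/mL and its vehicle mean 0.143 ± 0.0905 CPM, a difference that cannot be judged at this depth.

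SP5 encodes a zinc-finger transcription factor that represses other targets of the pathway. It fell from bottom to top dose in 4 extracts. Fresh ginger gave 146, 133 and 169 CPM at 20 µg/mL, 83.1, 109 and 107 CPM at 100 µg/mL and 79.4, 91.6 and 91.3 CPM at 500 µg/mL. The middle dose already lay below the bottom dose and overlapped the top dose, and between top and bottom SP5 had a change of -0.77 ± 0.0932 (adjusted p = 8.87e-10). Scutellariae Radix gave 132, 123 and 128 CPM at the bottom and 74.0, 80.7 and 80.4 CPM at the top dose (-0.70 ± 0.0944, adjusted p = 1.20e-08), and Coptidis Rhizoma 142, 147 and 154 against 92.8, 90.6 and 94.9 CPM (-0.67 ± 0.0929, adjusted p = 1.18e-08). Dried ginger gave 131, 136 and 131 against 120, 83.0 and 92.1 CPM (-0.44 ± 0.0924, adjusted p = 0.00011), and without the libraries that stand apart, of which the 120 CPM library is 1, the change was -0.60 (adjusted p = 3.97e-07). The middle doses gave 116, 108 and 108 CPM in dried ginger, 119, 123 and 124 CPM in Coptidis and 125, 135 and 116 CPM in Scutellariae. In none of these 4 extracts did the top and bottom doses overlap. In Pinelliae and Zizyphi the changes of -0.24 ± 0.1 and -0.17 ± 0.0898 did not pass.

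Against vehicle, at 104, 114 and 123 CPM, SP5 reads differently, since the bottom doses of all 6 extracts lay above every vehicle library. The log2 changes at the bottom doses ran from 0.17 to 0.52, and 3 of the 6 were called, in groups where 0.00601% to 16% of all genes were called. All 6 bottom doses are set against the same 3 vehicle libraries. Wortmannin, with title number 1 where vehicle has A1, was at 112, 108 and 120 CPM (0.00 ± 0.0925). Higher SP5 at the bottom doses of every extract and a title number other than that of vehicle cannot be told apart here. The labels of the extract groups give no DMSO value, so any difference in DMSO from vehicle cannot be told apart either. The calls were 0.52 ± 0.0914 in Zizyphi at 20 µg/mL, 0.40 ± 0.0914 in fresh ginger at 20 µg/mL and 0.38 ± 0.0918 in Coptidis at 8.4 µg/mL. In TPM that Coptidis group was at 188 ± 14.0, against 179 ± 15.1 in vehicle. The Zizyphi call was lost when only the groups compared were fitted (0.53, adjusted p = 0.0608) and was 0.51 (adjusted p = 0.00124) without the libraries that stand apart. The fresh ginger call was lost without vehicle replicate 1 (0.34, adjusted p = 0.0744) or fresh ginger replicate 3 (0.30, adjusted p = 0.154). Zizyphi at 500 and 100 µg/mL was also called higher, by 0.35 ± 0.0912 and 0.45 ± 0.0914. Without vehicle replicate 1 or 2, replicate 1 or 3 of the 500 µg/mL group or replicate 3 of the 100 µg/mL group, the call of the group concerned was lost (0.29 to 0.45, adjusted p from 0.0653 to 0.181). SP5 was below vehicle at the top doses of Scutellariae (-0.53 ± 0.0948), fresh ginger (-0.37 ± 0.0943) and Coptidis (-0.29 ± 0.0936, adjusted p = 0.00563).

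**Figure D3:**
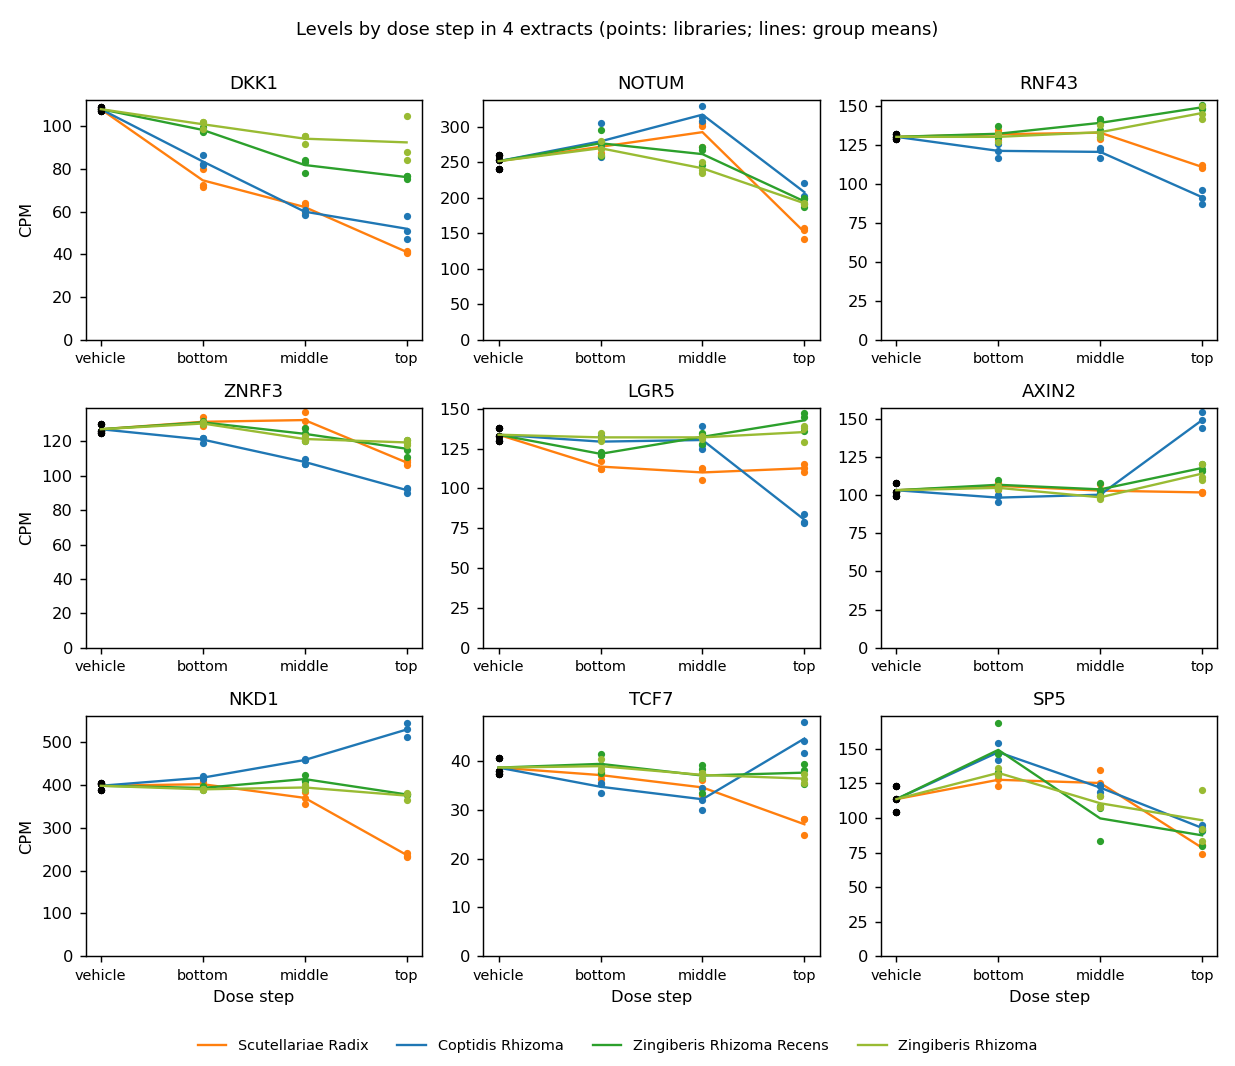
Level in CPM (vertical axis, from 0) of the 9 tested genes by dose step (horizontal axis: vehicle, bottom, middle and top dose) for 4 extracts; points are libraries and lines join group means. DKK1 falls stepwise with Scutellariae Radix and Coptidis Rhizoma, NOTUM is lowest at the top dose, SP5 is lower at the top than at the bottom dose, and NKD1 and TCF7 end above vehicle with Coptidis (530 and 44.7 CPM) and below it with Scutellariae (236 and 27.1 CPM).

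Scutellariae Radix and Coptidis Rhizoma shared some of these changes and parted in others. Within each extract, top against bottom dose, 7 of the 9 genes were called in Scutellariae (all lower, against 49.9% of all genes called and 25.4% called lower) and 9 in Coptidis (3 higher and 6 lower, against 65.8%). The other extracts gave 7 called genes for fresh ginger (48.1% of all genes), 5 for dried ginger (41%), 2 for Pinelliae (1.9%) and 2 for Zizyphi (7.22%). The difference between the Coptidis and the Scutellariae change was tested as an interaction chosen after the values had been seen, and 5 of the 9 genes were called in it, where 42.6% of all genes were. The doses of the extracts differ (210 and 8.4 against 500 and 20 µg/mL), as does the title number. NKD1 rose by 0.34 ± 0.0383 in Coptidis and fell by 0.77 in Scutellariae, a difference of 1.11 ± 0.0546 (adjusted p = 1.17e-22). TCF7 rose by 0.36 ± 0.0614 in Coptidis and fell by 0.46 in Scutellariae, a difference of 0.82 ± 0.0887 (adjusted p = 7.89e-11). AXIN2 rose by 0.60 ± 0.0419 in Coptidis against -0.06 ± 0.0423 in Scutellariae (difference 0.66 ± 0.0595, adjusted p = 3.10e-13), and LGR5 fell by 0.69 in Coptidis against -0.01 in Scutellariae (difference -0.67 ± 0.0597, adjusted p = 1.97e-13). NOTUM fell in both, less so in Coptidis (difference 0.41 ± 0.075, adjusted p = 9.52e-06). The differences for DKK1 (0.18, 95% interval 0.00 to 0.36), RNF43 (-0.16, interval -0.32 to 0.01), ZNRF3 (-0.11, interval -0.21 to -0.01) and SP5 (0.03, interval -0.23 to 0.29) did not pass after adjustment over all genes, which does not show that the extracts acted alike on them. Of these 4, 3 were called when the 3 libraries that stand apart, none of them from either extract, were left out of the fit, so that 8 of the 9 genes were called in all. Their differences were then 0.18 for DKK1 (adjusted p = 0.0295), -0.16 for RNF43 (adjusted p = 0.0189) and -0.11 for ZNRF3 (adjusted p = 0.0224), the same sizes as with all libraries.

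**Figure D4:**
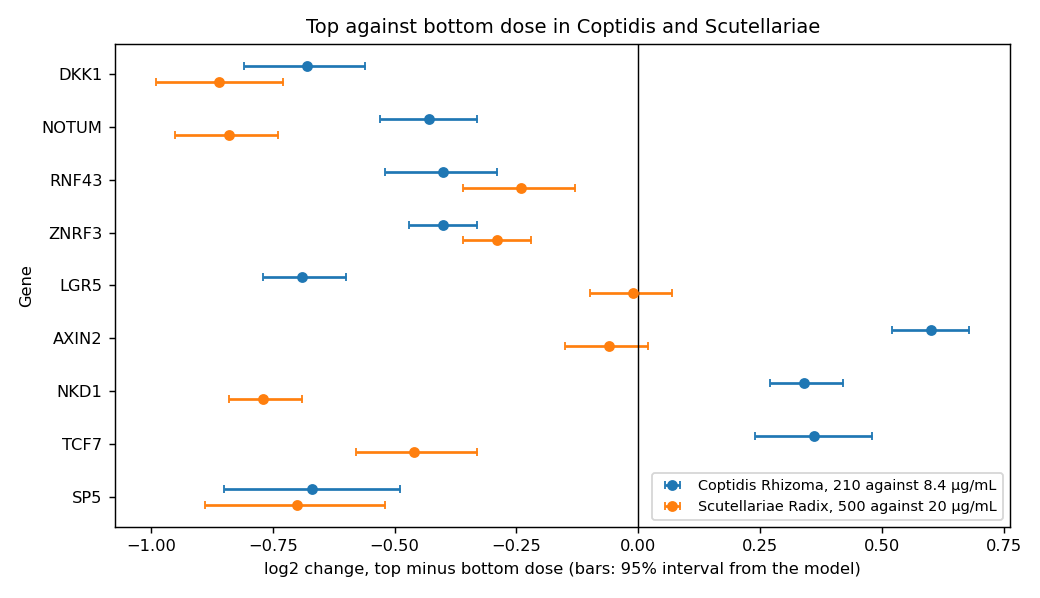
Log2 change between top and bottom dose (horizontal axis) of the 9 tested genes (vertical axis) in Coptidis Rhizoma and Scutellariae Radix; points are model estimates and bars their 95% intervals. Both extracts lie left of 0 for DKK1, NOTUM, RNF43, ZNRF3 and SP5, while for NKD1 and TCF7 Coptidis lies right of 0 and Scutellariae left.

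Markers of hepatocytes also changed, mostly lower at the top doses of Coptidis, Scutellariae and the gingers and higher with wortmannin. Of the 8 hepatocyte markers, 8 were lower in Scutellariae Radix at 500 µg/mL and 7 in Coptidis Rhizoma at 210 µg/mL, where 1 was higher, in groups where 25.5% and 34.5% of all genes were called lower. Their summed level was 23627 to 24476 CPM in vehicle libraries, 17391 to 17717 in the Scutellariae and 14871 to 15322 in the Coptidis group. In fresh and dried ginger at 500 µg/mL 6 of 8 were lower (22.5% and 20.9% of all genes), with sums of 20204 to 20555 and 18916 to 21335 CPM. With wortmannin 6 were higher (16.2% of all genes), with sums of 26412 to 27205 CPM. The summed level of the 10 markers of other cell types was 82.0 to 86.5 CPM in vehicle, 125 to 134 CPM in Scutellariae and 125 to 142 CPM in Coptidis at the top dose, and nearly all of it was CD68 and ACTA2. The part of either marker list in the changes of the Wnt targets was not tested.

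Across the 20 group means of log2 CPM, which share the normalization, the title numbers and a single vehicle group, pairs of the 9 genes had Pearson correlations between -0.67 and 0.71, with a median of 0.20 over 36 pairs. The highest were between NKD1 and TCF7 and between RNF43 and LGR5, both at 0.71, and the lowest between LGR5 and AXIN2 at -0.67. DKK1 was closest to SP5 (0.65) and ZNRF3 (0.58), at 0.11 with NOTUM and at -0.15 with AXIN2. Of all tested genes with a mean of at least 1 CPM, the 5 whose pattern was most like DKK1 were TFG (0.914), FGFR1 (0.900), GORASP2 (0.890), IRX3 (0.890) and NFYA (0.880). The 5 most like AXIN2 were PLCXD2 (0.937), DNMBP (0.930), NXF1 (0.930), NECTIN1 (0.929) and TENT5B (0.918). None of these 10 is in the lists of Wnt pathway genes used here, and the correlations are a description over 20 group means.

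The rest of the pathway was read from 7 lists of 106 genes, of which 67 were tested. Their counts stand beside those of all tested genes, of which Coptidis Rhizoma at 210 µg/mL had 34.8% higher and 34.5% lower, Scutellariae Radix at 500 µg/mL 24.7% and 25.5%, fresh ginger 23.5% and 22.5%, dried ginger 21.5% and 20.9%, and wortmannin 16.2% and 16%. Of the ligands, R-spondins and secretion genes, 5 of 25 were tested. Coptidis Rhizoma at 210 µg/mL raised 4 of the 5, where 34.8% of all genes were called higher, with a median change of 0.97 against 0.00 for all genes. WNT11 rose from 0.543 ± 0.0687 to 15.0 ± 1.16 CPM (4.77 ± 0.213) and WNT7B to 12.6 ± 0.45 CPM (4.52 ± 0.192), from a vehicle level of at most 16 and 15 counts per library. PORCN, the enzyme that attaches the lipid to Wnt ligands, rose by 0.97 ± 0.093. Scutellariae Radix at 500 µg/mL raised 3 (24.7% of all genes), WNT7B to 3.59 ± 0.257 CPM (2.71 ± 0.217), WNT11 to 0.935 ± 0.247 CPM (0.78 ± 0.3) and PORCN by 0.25 ± 0.0994. WNT7B was also the 1 ligand gene raised by fresh ginger (1.57 ± 0.246) and dried ginger (1.55 ± 0.243), and with wortmannin it fell (-1.02 ± 0.348), as did WNT3 (-0.17 ± 0.0666).

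Among 13 tested receptors and co-receptors, Coptidis at 210 µg/mL raised 4 and lowered 5 (median -0.21, against 34.8% of all genes higher and 34.5% lower) and Scutellariae at 500 µg/mL raised 2 and lowered 6 (median -0.19, against 24.7% and 25.5%). FZD4, an abundant Frizzled receptor in these cells at 214 CPM in vehicle, fell to 62.6 ± 3.58 CPM with Coptidis (-1.78 ± 0.0437) and to 128 ± 2.49 CPM with Scutellariae (-0.74 ± 0.0416), and wortmannin raised it to 279 ± 3.34 CPM (0.38 ± 0.0405). FZD1 went the same ways, at -1.52 ± 0.131, -0.93 ± 0.123 and 0.57 ± 0.104, and was also lower in fresh (-0.67 ± 0.119) and dried ginger (-0.55 ± 0.116). The ginger groups raised 4 and lowered 4 receptor genes each, among them FZD6 (0.55 ± 0.0677 with fresh) and LRP5 (0.41 ± 0.0711 with dried). The 8 other tested inhibitors of the cell surface and extracellular space had 2 higher and 5 lower with Coptidis, of which SFRP4, a secreted Wnt-binding protein, fell by 1.62 and TPBG rose by 1.44 ± 0.243. They had 2 higher and 2 lower with Scutellariae, and 1 higher with wortmannin, KREMEN1, a receptor for Dickkopf proteins (0.31 ± 0.0543).

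All 14 genes of the destruction complex and Dishevelled list were tested. Coptidis at 210 µg/mL raised 8 and lowered 3 (median 0.26), where 34.8% and 34.5% of all genes were called. Scutellariae at 500 µg/mL raised 4 and lowered 3 (median 0.08, against 24.7% and 25.5% of all genes), fresh ginger raised 4 and lowered 2, dried ginger raised 2 and lowered 3, and wortmannin raised 3 and lowered 2. DVL1, a Dishevelled gene, rose by 1.05 ± 0.0535 with Coptidis, 0.32 ± 0.0546 with Scutellariae and 0.33 ± 0.0547 with fresh ginger. CSNK1A1, casein kinase 1 alpha of the destruction complex, rose by 0.78 ± 0.0372 and 0.34 ± 0.0373 with Coptidis and Scutellariae. AMER1, which recruits that complex to the membrane, fell by 1.52 with Coptidis, 0.84 with Scutellariae, 0.72 with fresh and 0.58 with dried ginger. CTNNB1 itself was at 426 CPM in vehicle and 446 ± 10.6 CPM in Coptidis at 210 µg/mL (0.06 ± 0.0391, adjusted p = 0.139). Over the 19 groups its change lay between -0.11 and 0.18, and it was called higher with Coptidis at 42 µg/mL (0.18 ± 0.0391) and lower with wortmannin (-0.11 ± 0.0392).

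Of 11 tested nuclear partners, Coptidis at 210 µg/mL raised 7 and lowered 3 (34.8% and 34.5% of all genes), among those raised BCL9L (0.95 ± 0.0858), TLE4 (0.88 ± 0.127) and TLE3 (0.86 ± 0.0677). TLE1, a Groucho-type co-repressor, fell with Scutellariae (-0.29 ± 0.0373), fresh ginger (-0.39 ± 0.0377), dried ginger (-0.28 ± 0.0371) and wortmannin (-0.25 ± 0.037). The 8 tested liver targets of β-catenin split. RGN (regucalcin) fell by 2.05 with Coptidis, 1.17 with fresh ginger, 1.11 with dried ginger and 1.03 with Scutellariae, and RHBG, an ammonium transporter, fell by 1.68 with Coptidis. TBX3, a transcription factor gene, rose with Coptidis (1.17 ± 0.0477), fresh ginger (0.41 ± 0.0485) and Scutellariae (0.35 ± 0.0485). With wortmannin 6 of the 8 rose and none fell, led by SLC1A2, a glutamate transporter (1.00 ± 0.0564), where 16.2% of all genes were called higher. Of the 8 other tested targets of β-catenin wortmannin lowered 6, where 16% of all genes were called lower, with MYC at -0.29 ± 0.0453 and TNFRSF19, a receptor gene of the TNF family, at -0.26 ± 0.0353. Coptidis at 210 µg/mL raised MYC (0.93 ± 0.0445) and CCND1 (0.48 ± 0.042) and lowered TNFRSF19 from 168 to 47.8 ± 2.53 CPM (-1.81 ± 0.0382). Scutellariae raised MYC (0.48 ± 0.0447) and lowered CCND1 (-0.43 ± 0.0425) and TNFRSF19 (-0.64 ± 0.0359). These lists are described by their counts and medians only, and nothing is called particular to them.

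**Figure D5:**
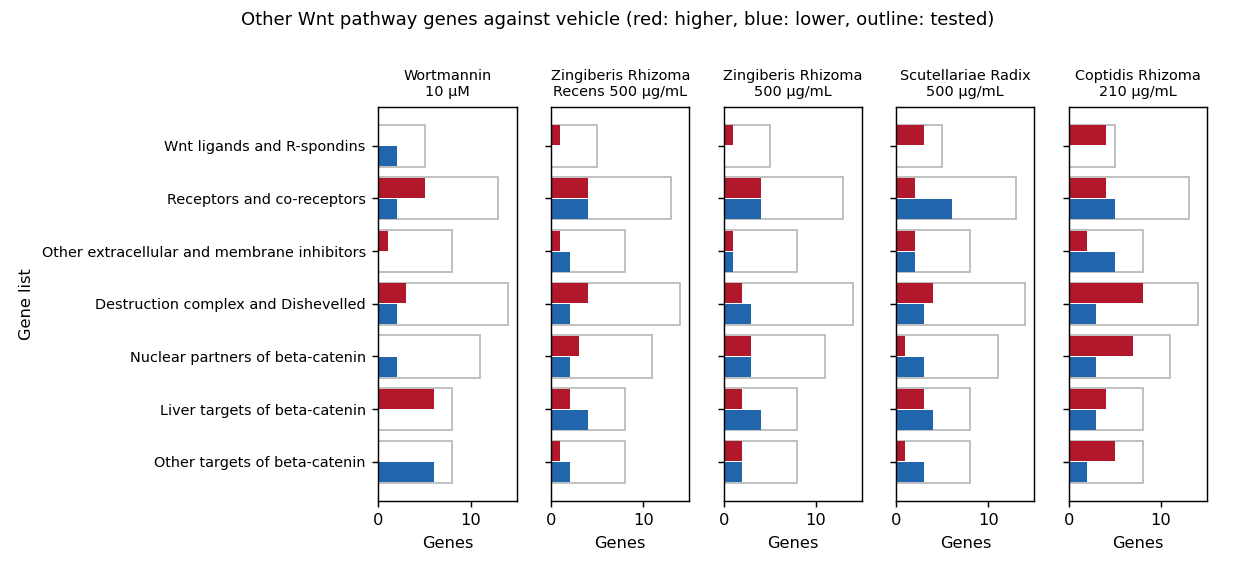
Number of genes (horizontal axis) called higher (red) and lower (blue) against vehicle in 7 lists of other Wnt pathway genes (vertical axis), for wortmannin and the top dose of 4 extracts; outlines give the number tested. Coptidis Rhizoma at 210 µg/mL has 4 of 5 ligand genes higher, and wortmannin has 6 of 8 liver targets higher and 6 of 8 other targets lower.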

How the data were processed

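RNA was read as 100-base pairs with a directional kit, per the labels' protocols. Per the submitters' processing notes, RSEM 1.3.3 and STAR 2.7.3a were used on GRCh38, after Trim Galore 0.6.5 and FastQC 0.11.9. No source used here names the annotation or the strand setting. The authors deposited expected counts from RSEM for 60675 genes, of which 24.44% of the values above 0 were not whole. They were rounded. Of 267 columns 208 match no sample used here and were not used.

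All 59 libraries were fitted in edgeR 4.0.16 (limma 3.58.1, R 4.3.3) with 20 group means, TMM scaling, the filterByExpr filter and the quasi-likelihood test, two-sided, with calls at p under 0.05 after Benjamini-Hochberg adjustment over 16641 genes. Residual degrees of freedom were 39 and the biological coefficient of variation was 4.4%. Intervals are 1.96 standard errors either way. CPM uses TMM-scaled library sizes and TPM the exon lengths of GENCODE 29. Correlations use log2 CPM with a prior count of 2. A library stood apart where its mean chi-square against both others of its group, over genes with at least 100 counts, exceeded 15. The method was also run on simulated counts with a single dispersion, few changed genes and no library set apart, a simpler setting than these data.

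The members and lists were chosen with earlier results of these data known. All 10 members are named. From each list, in wortmannin and the top doses, up to 3 called genes with the largest change and a mean of at least 1 CPM could be named, and CTNNB1 always; values of a named gene in other groups are given beside it. The 5 genes most like DKK1 and AXIN2 were taken by Pearson correlation over the 20 groups. Replicate numbers were checked for pairing in 28 comparisons. Deviations of same-numbered libraries correlated between -0.227 and 0.335, and every pair exceeded 0.1 in 1 comparison only, Scutellariae Radix at 500 against 20 µg/mL. Alternatives were DESeq2 1.42.0, its size factors, no filter, only the groups compared, a replicate block, each library left out and the 3 libraries that stand apart left out.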

Additional observations from a re-analysis of the deposited data

Results flagged for a closer look

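The DKK1 difference between fresh and dried ginger at 500 µg/mL (-0.28 on the log2 scale) was flagged because 2 preparations of ginger at the same dose differed in the test. It was -0.18 without replicate 1 of dried ginger.

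The changes from bottom to top dose were flagged for 5 genes because they differed between Coptidis Rhizoma and Scutellariae Radix in the test of the difference itself. The differences, Coptidis minus Scutellariae, were 1.11 for NKD1, 0.82 for TCF7, 0.66 for AXIN2, 0.41 for NOTUM and -0.67 for LGR5. The doses of the 2 extracts differ, and their part was not tested. Groups held at most 3 libraries, so single libraries were not tested as outliers.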

How the results depend on the processing

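Of 94 called changes of single members, 75 were called in every alternative run and 19 were lost in at least 1, and none reversed. DESeq2, RLE size factors, the replicate block and leaving out the 3 libraries that stand apart each kept all 94, no filter on low counts kept 92, only the groups compared kept 89, and leaving out 1 library kept 551 of 592. With the replicate block 1 of 261 member tests gained a call and 0 lost one. The gain was NOTUM in Zizyphi Fructus at 500 µg/mL (-0.17, adjusted p = 0.0488), which moved that count from 2 to 3.

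Counts of called members moved as follows. With no filter they became 2 in fresh ginger at 100 µg/mL, 1 in dried ginger at 20, 4, 1 and 1 in Pinelliae at 500, 100 and 20, 2 in Zizyphi at 20, and 2, 1 and 1 between the gingers at 500, 100 and 20 µg/mL. With only the groups compared they became 2 and 3 in fresh ginger at 100 and 20, 1 in dried ginger at 20, 1 in Pinelliae at 20, 5 in Scutellariae at 100, 5 in Coptidis at 8.4, 0 in Zizyphi at 20, 0 in Zizyphi top against bottom, and 0 and 1 between the gingers at 500 and 100 µg/mL. RLE size factors gave 2 in fresh ginger at 20, and DESeq2 gave 2 there and 2 in Pinelliae at 100 µg/mL. Without the libraries that stand apart the counts were 3 in fresh ginger at 20, 1 in Pinelliae at 20, 1 between the gingers at 100 µg/mL and 8 in Coptidis against Scutellariae. The cause of these moves was not tested.

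Leaving out 1 library moved a count by more than 1.5 times in at least 1 fit in 11 comparisons, with counts of 0 to 1 in fresh ginger at 20, 2 to 6 in dried ginger at 500, 0 to 1 in dried ginger at 100, 1 to 2 in Pinelliae at 500, 1 to 2, 0 to 1 and 1 to 3 in Zizyphi at 500, 100 and 20, 0 to 1 between the gingers at 500 µg/mL, and, top against bottom, 3 to 6 in dried ginger, 1 to 2 in Pinelliae and 2 to 4 in Zizyphi. The other counts moved by less. Among the 10 genes LEF1, at 1 to 11 counts, was too low to test, and 67 of 106 other pathway genes were tested.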
